A study of Drosophila melanogaster with 11 samples.

Results

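The 10 genes described here are the 3 Drosophila NF-κB transcription factors, Rel (Relish), Dif and dl (dorsal), with named components of the pathways that activate them: imd, Dredd, Tak1 and key (kenny) of the Imd pathway, and spz (spätzle), Tl (Toll) and cact (cactus) of the Toll pathway. They were taken by gene symbol from all 3 expression tables, which list 15603 genes each, and every one of the 10 was present in all 11 libraries. Expression is given as FPKM (fragments per kilobase of transcript, scaled to the mapped reads of each library), so levels of different genes can be set side by side within a library.

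In the Imd pathway, bacterial peptidoglycan is sensed by PGRP receptors that recruit the death-domain adaptor Imd and the caspase Dredd. The kinase Tak1 then activates an IκB kinase complex that contains Kenny, and Relish is cleaved and enters the nucleus. In the Toll pathway, the cleaved cytokine Spätzle binds the receptor Toll, and the IκB protein Cactus is degraded, which releases Dif and Dorsal. Both pathways drive antimicrobial peptide genes, and the fat body is the main organ of this systemic response. Cleavage, degradation and nuclear entry of these proteins are not seen in RNA measurements.

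The study asked how flies respond to mitochondrial proteostatic stress and which part of the response needs PGAM5, a mitochondrial phosphatase. ΔOTC is a deletion mutant of ornithine transcarbamylase that misfolds in the mitochondrial matrix, ND75 is a subunit of respiratory complex I, and RU486 is the drug that switches on a GeneSwitch driver. The thorax table holds 3 libraries of dissected female thorax, prepared by the study as muscle: ΔOTC, ND75 RNAi, and a control in which the driver was crossed to w1118. All 3 thorax groups received RU486 for 24 hr about a week into adulthood, and the labels name a tubulin GeneSwitch driver where the study's legend names daughterless GeneSwitch. Each fat body table holds 4 libraries: PGAM5 null with RU486, PGAM5 null without RU486, wild type with RU486 and wild type without RU486. "Wild type" refers to PGAM5 only, since all 8 fat body groups carry daughterless GeneSwitch and UAS-dOTC, the ΔOTC transgene. The larval table comes from L3 larvae. In the adult table, the groups with RU486 come from flies that received the drug during development only. The age of the adults is not given in the labels, and the study gives it as about a week. No fat body group received RU486 without the transgene, so effects of the drug and of ΔOTC cannot be told apart.

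Tissue from several flies was pooled for each library, and each condition has 1 library. No difference below could therefore be set against a spread between replicates, no p-value is given, and a 95% interval on a ratio covers the counting of fragments only. Depth was estimated at 3000000 fragments for ND75 RNAi to 8880000 for wild-type larvae with RU486, and a member's value rested on between 26.1 fragments (imd with ND75 RNAi) and 1668 (Rel in an adult fat body). ND75 itself was listed at 53.8 FPKM with ND75 RNAi, 375 FPKM with ΔOTC and 572 FPKM in the control thorax, and Pgam5 at 0 to 0.841 FPKM in PGAM5 null against 10.1 to 16.8 FPKM in wild-type fat bodies. Markers of the labelled tissue were high in each table: 12 muscle genes summed to 11683 to 24806 FPKM in thorax, 6 larval fat body genes to 131857 to 192531 FPKM in the larval table (with Lsp1beta at 0 in wild type with RU486), and 5 adult fat body genes to 62761 to 115335 FPKM in the adult table. Lsp1alpha differed by genotype in larvae. It had 910 and 478 FPKM in PGAM5 null with and without RU486, against 21292 and 11420 FPKM in wild type. The libraries also held transcripts of other tissues, in differing amounts. In thorax the 5 adult fat body genes summed to 16396 FPKM with ΔOTC, 14192 FPKM with ND75 RNAi and 17409 FPKM in the control. The summed FPKM of 10 gut markers was 315 with ΔOTC and 162 with ND75 RNAi against 1682 in the control thorax, and that of 9 ovary markers was 13.2 and 30.2 against 290. In adult fat body the gut sum was 7079 in wild type without RU486 and 379 to 660 in the other libraries, and the ovary sum was 1439 in PGAM5 null after RU486 and 36.1 to 90.2 in the others. In larvae the gut sum was 1000 in PGAM5 null with RU486 and 8451 to 9824 in the others, and 5 salivary gland glue genes summed to 37731 and 59131 FPKM with RU486 (PGAM5 null and wild type) and to 168451 and 134662 FPKM without it. The part of these transcripts in the members' values was not tested, and a change in the number of cells of a type cannot be told apart from a change in RNA per cell.

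In thorax, Rel, the transcription factor of the Imd pathway, was listed at 102.5 FPKM with ΔOTC, 33.8 FPKM with ND75 RNAi and 28.0 FPKM in the control. The ΔOTC library stands alone and the other 2 are close together. The ratio of ΔOTC to the control was 3.67 (95% interval 3.27 to 4.11), which placed Rel 27th from the top of the 4308 genes with at least 10 FPKM in the control. The study's legends use a threshold for induced genes, a ratio of 3 or more to a reference of at least 10 FPKM. For thorax, the legend counts genes that pass with both treatments. With the threshold applied to ΔOTC alone, Rel was the only member that was induced, of 7 members with enough expression in the control. The background was 1.02% of genes induced and 6.66% reduced (a ratio of 0.5 or less), and the median gene had a ratio of 1.02.

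**Figure D1:**
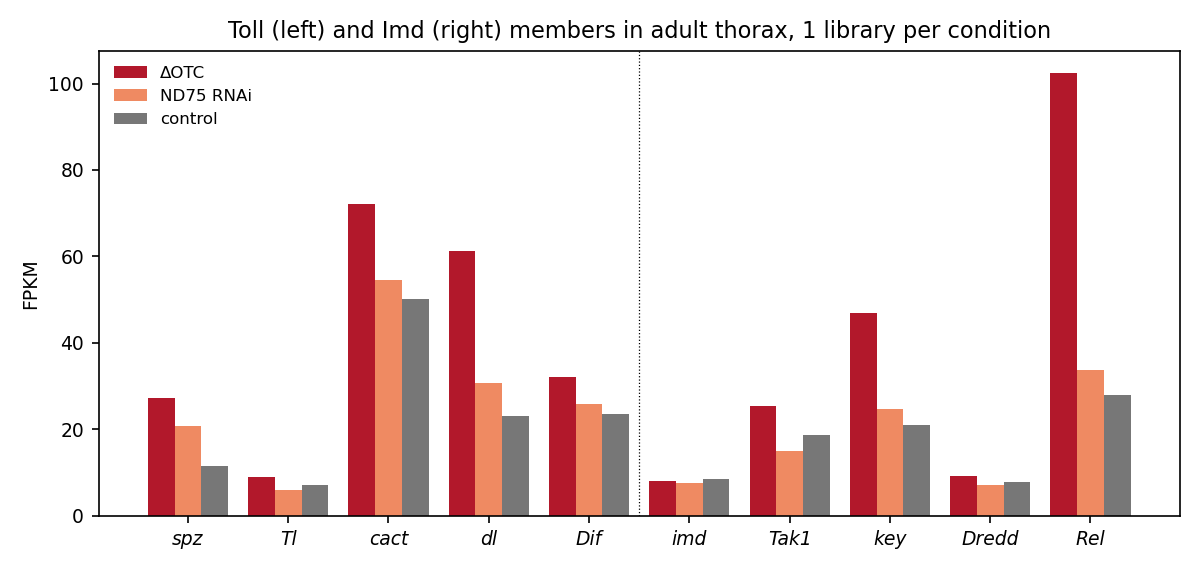
FPKM of the 10 members (horizontal axis) in the 3 thorax libraries, ΔOTC, ND75 RNAi and control from left to right within each gene, with Toll pathway genes left of the dotted line and Imd pathway genes right of it. Bars are single libraries without error; Rel, dl, key and spz stand highest with ΔOTC relative to the control.

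The other members of the Imd pathway had smaller ratios. key, the regulatory subunit of the IκB kinase, had 47.0 FPKM with ΔOTC, 24.6 FPKM with ND75 RNAi and 20.9 FPKM in the control. Its ratio of ΔOTC to the control was 2.25 (1.84 to 2.77), below the threshold and above a 2-fold line that 4.04% of tested genes passed upward. Tak1, the kinase upstream of that complex, had 25.4 FPKM with ΔOTC, 15.0 FPKM with ND75 RNAi and 18.8 FPKM in the control, a ΔOTC ratio of 1.36 (1.09 to 1.68). Further upstream the values lay closer to the control. The caspase gene Dredd had 9.14 FPKM with ΔOTC, 7.10 FPKM with ND75 RNAi and 7.81 FPKM in the control, and its ΔOTC ratio was 1.17 (0.812 to 1.67). imd, the adaptor, had 8.04 FPKM with ΔOTC, 7.52 FPKM with ND75 RNAi and 8.56 FPKM in the control, and its ΔOTC ratio of 0.939 (0.622 to 1.42) was the only one of the 10 below 1. The intervals of Dredd and imd hold 1 and also the ratio of Tak1, so a difference of that size was not detectable at this depth.

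In the Toll pathway, dl showed the largest ratio of ΔOTC to the control. dl had 61.3 FPKM with ΔOTC, 30.7 FPKM with ND75 RNAi and 23.2 FPKM in the control, a ΔOTC ratio of 2.65 (2.31 to 3.04). Dif, the second factor held by Cactus, had 32.0 FPKM with ΔOTC, 25.9 FPKM with ND75 RNAi and 23.6 FPKM in the control, a ΔOTC ratio of 1.36 (1.16 to 1.58), and the intervals of dl and Dif do not overlap. spz, the ligand, had 27.3 FPKM with ΔOTC, 20.7 FPKM with ND75 RNAi and 11.6 FPKM in the control, which gave a ΔOTC ratio of 2.36 (1.87 to 3.01). cact, the inhibitor, was the most abundant Toll pathway member in every thorax library, at 72.0 FPKM with ΔOTC, 54.5 FPKM with ND75 RNAi and 50.2 FPKM in the control, a ΔOTC ratio of 1.43 (1.27 to 1.62). The receptor gene Tl was among the lowest, at 8.91 FPKM with ΔOTC, 5.83 FPKM with ND75 RNAi and 7.03 FPKM in the control, a ΔOTC ratio of 1.27 (1.03 to 1.56). Counted over all 10, 9 members were higher with ΔOTC than in the control, beside 56% of all genes that reached 1 FPKM, and 4 members (Rel, dl, spz and key) passed 2-fold. Markers of hemocytes, the blood cells of the fly, lay in the same direction: 9 of 10 were higher with ΔOTC than in the control and their sum was 476 FPKM with ΔOTC, 343 FPKM with ND75 RNAi and 334 FPKM in the control. That sum rests largely on Cg25C, Ppn and vkg, which changed less than other hemocyte markers. The median log2 difference of the list was 0.74, beside 0.06 over all genes. Of 8 tested, nimC1 was induced, beside 1.02% of all genes. It had 41.1 FPKM with ΔOTC, 23.6 FPKM with ND75 RNAi and 10.5 FPKM in the control, a ΔOTC ratio of 3.91. The part of the hemocyte markers in the members' ratios was not tested.

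With ND75 RNAi no member passed the threshold in either direction, where 0.255% of tested genes were induced and 8.64% reduced. spz had the highest ratio to the control, 1.79 (1.36 to 2.39), followed by dl at 1.32 (1.10 to 1.58) and Rel at 1.21 (1.03 to 1.42). These are the 3 members whose intervals lie above 1. key was at 1.18, Dif at 1.10, cact at 1.08, Dredd at 0.909, imd at 0.878, Tl at 0.830 and Tak1 at 0.802, each with an interval that holds 1. The median gene was at 0.871 in this comparison, so 8 of the 10 members lay above it, and 6 were higher than the control beside 32% of all genes. The 2 thorax treatments share the control library, and their ratios are therefore not independent. Set directly against each other, Rel was 3.03-fold higher with ΔOTC than with ND75 RNAi (2.65 to 3.47), just past the threshold that 1.79% of genes reached, while 2.87% were reduced. dl followed at 2.0 (1.72 to 2.34), key at 1.91 (1.5 to 2.43) and Tak1 at 1.69 (1.28 to 2.27), whereas spz was at 1.32 (1.04 to 1.67). All 10 members were higher with ΔOTC than with ND75 RNAi as listed, beside 72.2% of all genes, but imd was at 0.919 with scaling to the median ratio. Muscle markers lay the other way in this comparison: they summed to 11683 FPKM with ΔOTC and 24806 FPKM with ND75 RNAi, and 5 of 12 were reduced. Their part in the members' ratios was not tested. The call for Rel in this comparison was lost when the libraries were scaled to their median ratio, which gave 2.61.

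**Figure D2:**
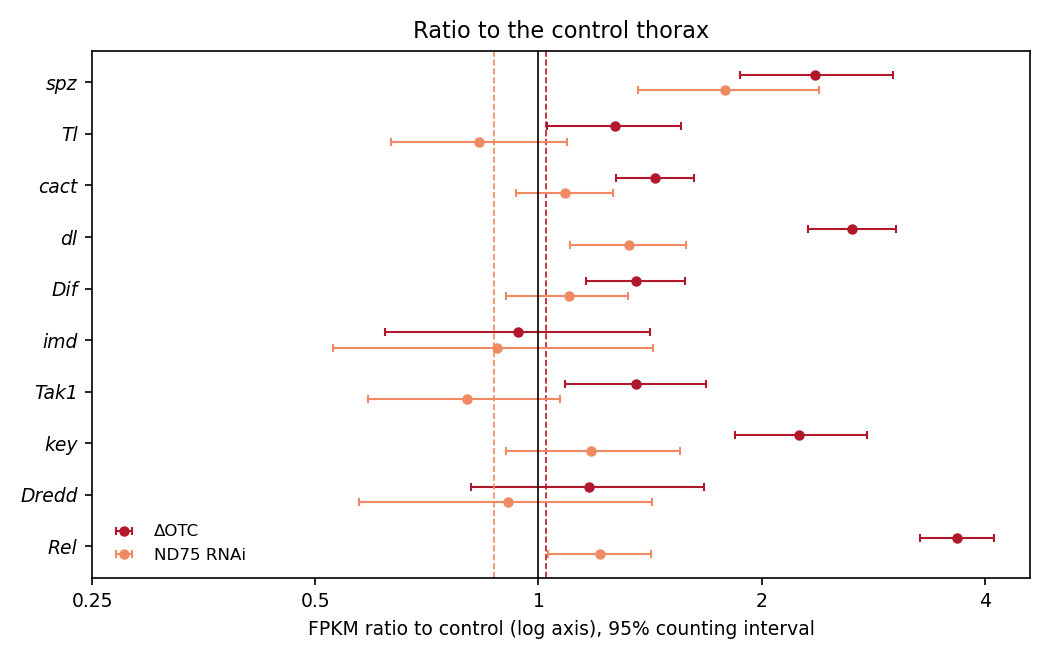
Ratio of FPKM to the control thorax on a log axis for ΔOTC (upper point of each pair) and ND75 RNAi (lower point), with 95% intervals for counting error; the solid line marks 1 and each dashed line the median gene of that comparison. Rel with ΔOTC is the only point above 3, and with ND75 RNAi only spz, dl and Rel have intervals above 1.

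The balance of the 3 NF-κB factors does not depend on how libraries are scaled. Rel made up 52.3% of their summed FPKM with ΔOTC, against 37.4% with ND75 RNAi and 37.4% in the control. Dif made up 16.3% with ΔOTC, 28.7% with ND75 RNAi and 31.6% in the control, while dl stayed between 31.0% and 33.9% in all 3. The sum of the 3 factors was 196 FPKM with ΔOTC, 90.4 FPKM with ND75 RNAi and 74.7 FPKM in the control. The amount of cact transcript per transcript of its 2 targets, Dif and dl together, was 0.772 with ΔOTC, 0.963 with ND75 RNAi and 1.07 in the control. That difference lies with dl, since cact and Dif had similar ratios of ΔOTC to the control (1.43 and 1.36) and dl a larger one.

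**Figure D3:**
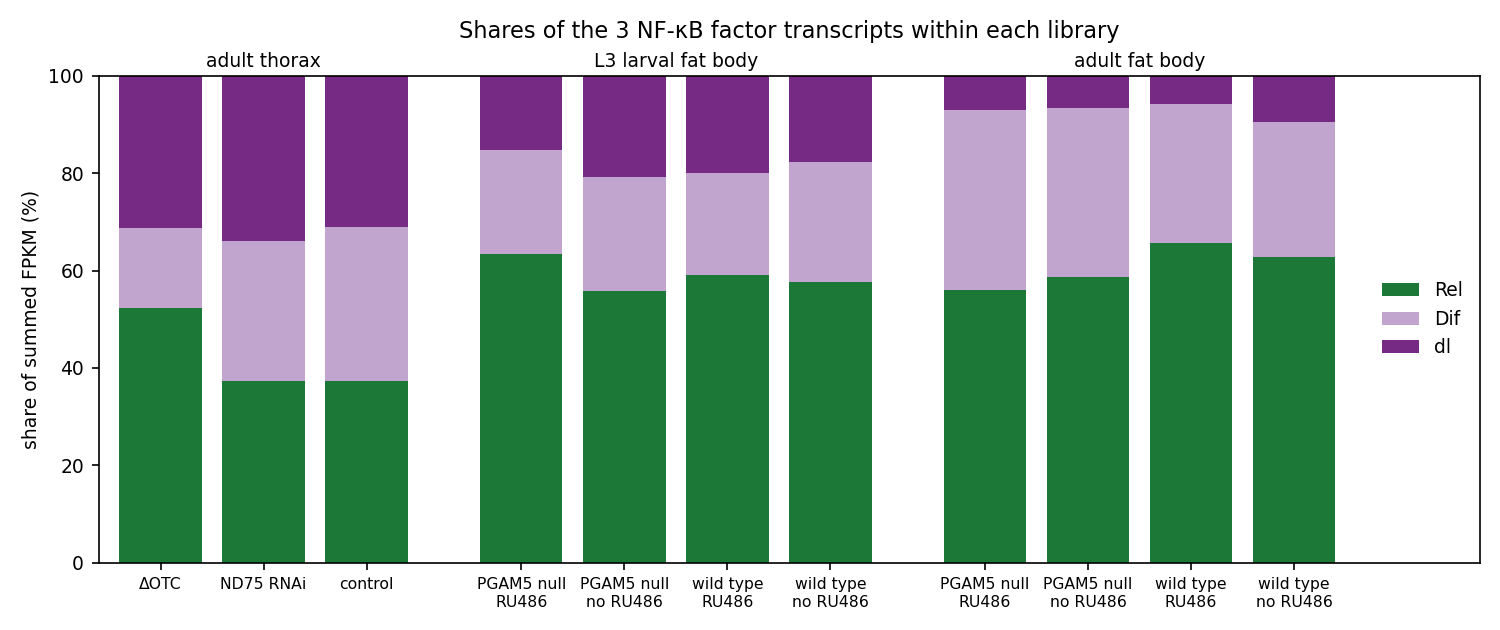
Share of Rel, Dif and dl (from bottom to top of each bar, in percent) in their summed FPKM for each of the 11 libraries, grouped by tissue. Rel takes 52.3% with ΔOTC and 37.4% in each of the other thorax libraries, and dl is small in all 4 adult fat bodies.

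Of 25 other Imd components, receptors and regulators included, 21 were higher with ΔOTC than in the control, beside 56% of all genes, and 4 were lower. None of the 15 tested passed the threshold, and the median log2 difference was 0.26 (of FPKM plus 1), beside 0.06 over all genes at 1 FPKM or more. The 3 most abundant in the control were close to it: the ubiquitin-conjugating enzyme gene eff had 202 FPKM with ΔOTC against 173 FPKM in the control, ben had 61.6 against 56.9 FPKM, and the deubiquitinase gene trbd had 70.1 against 81.0 FPKM. Larger ratios fell on genes with less than 10 FPKM in the control, which the threshold leaves out, and the 4 highest of these were looked up after their values were seen. PGRP-SD, a secreted peptidoglycan sensor, had 62.7 FPKM with ΔOTC, 17.2 FPKM with ND75 RNAi and 5.2 FPKM in the control. PGRP-LF had 11.4 FPKM with ΔOTC, 2.23 FPKM with ND75 RNAi and 3.51 FPKM in the control. PGRP-LB, an amidase that degrades peptidoglycan, had 25.9 FPKM with ΔOTC, 3.67 FPKM with ND75 RNAi and 8.47 FPKM in the control, and pirk had 12.0 FPKM with ΔOTC, 2.98 FPKM with ND75 RNAi and 4.08 FPKM in the control. PGRP-SD was thus above the control in both treatments and the other 3 only with ΔOTC. With ND75 RNAi 5 of the 25 Imd components were higher than the control, beside 32% of all genes, and 20 lower. Their median log2 difference was -0.24, beside -0.17 over all genes.

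Of 25 other Toll components, 22 were measured at 1 FPKM or more in either thorax library, and 18 of these were higher with ΔOTC than in the control (56% of all genes), with none of the 12 tested past the threshold and a median log2 difference of 0.18. nec, a serpin that restrains the pathway, had 91.1 FPKM with ΔOTC against 82.0 FPKM in the control. SPE, the protease that cleaves Spätzle, had 87.7 against 68.9 FPKM, and smt3, which encodes SUMO, had 58.9 against 70.1 FPKM. Among those under 10 FPKM in the control, again looked up afterwards, the highest ratio was that of PGRP-SA, a circulating sensor of Gram-positive bacteria, which had 55.5 FPKM with ΔOTC, 25.7 FPKM with ND75 RNAi and 9.57 FPKM in the control. The protease genes spirit and Hayan followed, with 5.68 FPKM with ΔOTC against 1.19 FPKM in the control and 14.2 against 6.05 FPKM. With ND75 RNAi 9 of 22 were higher than the control, beside 32% of all genes. The other Toll receptors and Spätzle paralogs were scarce: 8 of 13 reached 1 FPKM in either the ΔOTC or the control library, 4 higher and 4 lower with ΔOTC. For the antimicrobial and immune-induced peptide genes, the outputs of both pathways, 19 of 20 were higher with ΔOTC than in the control, and 9 of the 20 had enough expression in the control to be tested. Of these 9, 3 passed the threshold upward, beside 1.02% of all genes. They were AttC, at 21.6-fold, Mtk, at 16.5-fold, and Drs, at 4.44-fold. IM23 fell to 6.50 FPKM with ΔOTC, against 35.3 FPKM in the control. In the ND75 RNAi library, all 20 peptide genes exceeded the control, beside 32% of all genes. AttC alone of the 9 tested passed the threshold there, at 3.65-fold, beside 0.255% of all genes. The list's median log2 difference from the control reached 1.93 in that library, below the 4.17 of the ΔOTC library. The Rel ratio of ND75 RNAi to the control was 1.21.

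In larval fat body Rel differed little between conditions. It had 21.3 FPKM in PGAM5 null with RU486, 19.9 FPKM in PGAM5 null without RU486, 18.3 FPKM in wild type with RU486 and 23.6 FPKM in wild type without RU486. The 4 values span 1.29-fold. cact was the most abundant member in all 4 larval libraries, at 37.5 FPKM in PGAM5 null with RU486, 47.8 FPKM in PGAM5 null without RU486, 32.5 FPKM in wild type with RU486 and 38.8 FPKM in wild type without RU486. It stood at 2.24 to 3.04 transcripts per transcript of Dif and dl together, against 1.25 to 1.37 in adult fat body and 0.772 to 1.07 in thorax. key was the steadiest member, between 20.5 and 22.2 FPKM. Dredd, Tak1, Dif and dl were low, between 5.15 FPKM (dl) and 10.9 FPKM (Dredd).

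With RU486 no member passed the threshold in wild-type larvae, where 0.861% of genes were induced and 30.5% reduced. Relative to no RU486, 8 members were lower and 2 higher, beside 21.2% of all genes higher, but the median gene was itself at 0.707 and 9 of the 10 lay above it. The lowest were Dif at 0.650 (0.511 to 0.830), imd at 0.773 (0.590 to 1.01) and Rel at 0.777 (0.674 to 0.896). Of the 5695 exon bases of Dif, 252 are shared with CG15141 on the opposite strand. CG15141 had 2.54 FPKM in wild type with RU486 and 6.94 FPKM without it, and its part in the Dif ratio was not tested. In PGAM5 null larvae imd was reduced: it had 10.4 FPKM with RU486 against 24.9 FPKM without RU486, a ratio of 0.419 (0.294 to 0.581), beside 17.5% of genes reduced and 1.55% induced. In wild-type larvae imd had 11.7 FPKM with RU486 and 15.2 FPKM without RU486. The PGAM5 null larvae without RU486 thus stand apart as the highest, 1.64-fold above wild type without RU486 (1.27 to 2.10). The order of the 4 imd values is also that of the salivary gland sums given above, and 40 of the 1518 exon bases of imd are shared with GstE9 on the opposite strand, which had 74.4 and 37.0 FPKM in PGAM5 null with and without RU486. The part of either was not tested, and the call for imd was lost when libraries were scaled to their median ratio, which gave 0.536.

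Tl, the receptor, was highest in the larvae where imd was lowest. It had 14.8 FPKM in PGAM5 null with RU486, 8.56 FPKM in PGAM5 null without RU486, 10.3 FPKM in wild type with RU486 and 9.58 FPKM in wild type without RU486. The first library stands above the other 3, with a ratio to PGAM5 null without RU486 of 1.73 (1.44 to 2.08) and to wild type with RU486 of 1.44 (1.23 to 1.69). The reference of the first ratio is under 10 FPKM, so the threshold does not apply to it. Muscle markers summed to 739 FPKM in PGAM5 null with RU486 and 305 FPKM in PGAM5 null without RU486. In wild type they summed to 297 FPKM with RU486 and 519 FPKM without RU486. PGAM5 null larvae with RU486 also had the low gut sum given above. The part of these transcripts in the Tl and peptide values was not tested. spz, the ligand of Tl, had 12.5 FPKM in PGAM5 null with RU486, 13.4 FPKM in PGAM5 null without RU486, 15.7 FPKM in wild type with RU486 and 13.0 FPKM in wild type without RU486, and no interval excluded 1. Among the peptide genes in PGAM5 null larvae, 18 of 19 were higher with RU486 than without (32.4% of all genes) and 6 of 9 tested were induced (1.55% of all genes), among them Dpt at 1418 against 343 FPKM and Mtk at 1018 against 201 FPKM, while Rel had a ratio of 1.07 (0.896 to 1.29). In wild-type larvae, where Rel was at 0.777, 7 of 17 peptide genes were higher with RU486, beside 21.2% of all genes, and 10 lower. Of 8 tested, Mtk was induced, at 3.39, beside 0.861% of all genes. Drs, IM2 and IM10 were reduced, at 0.0753, 0.0600 and 0.333, beside 30.5% of all genes. Among the other Toll components 3 of 18 tested were reduced in PGAM5 null larvae, a share close to the 17.5% over all genes: the kinase gene pll at 0.418, Pli at 0.279 and the protease gene spirit at 0.440. Among the other Imd components 1 of 15 tested was reduced, PGRP-LB at 0.267. In wild-type larvae, beside 30.5% of all genes, 1 of 18 tested Toll components was reduced with RU486, Pli at 0.476, and 1 of 15 Imd components, the deubiquitinase gene CYLD at 0.394.

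**Figure D4:**
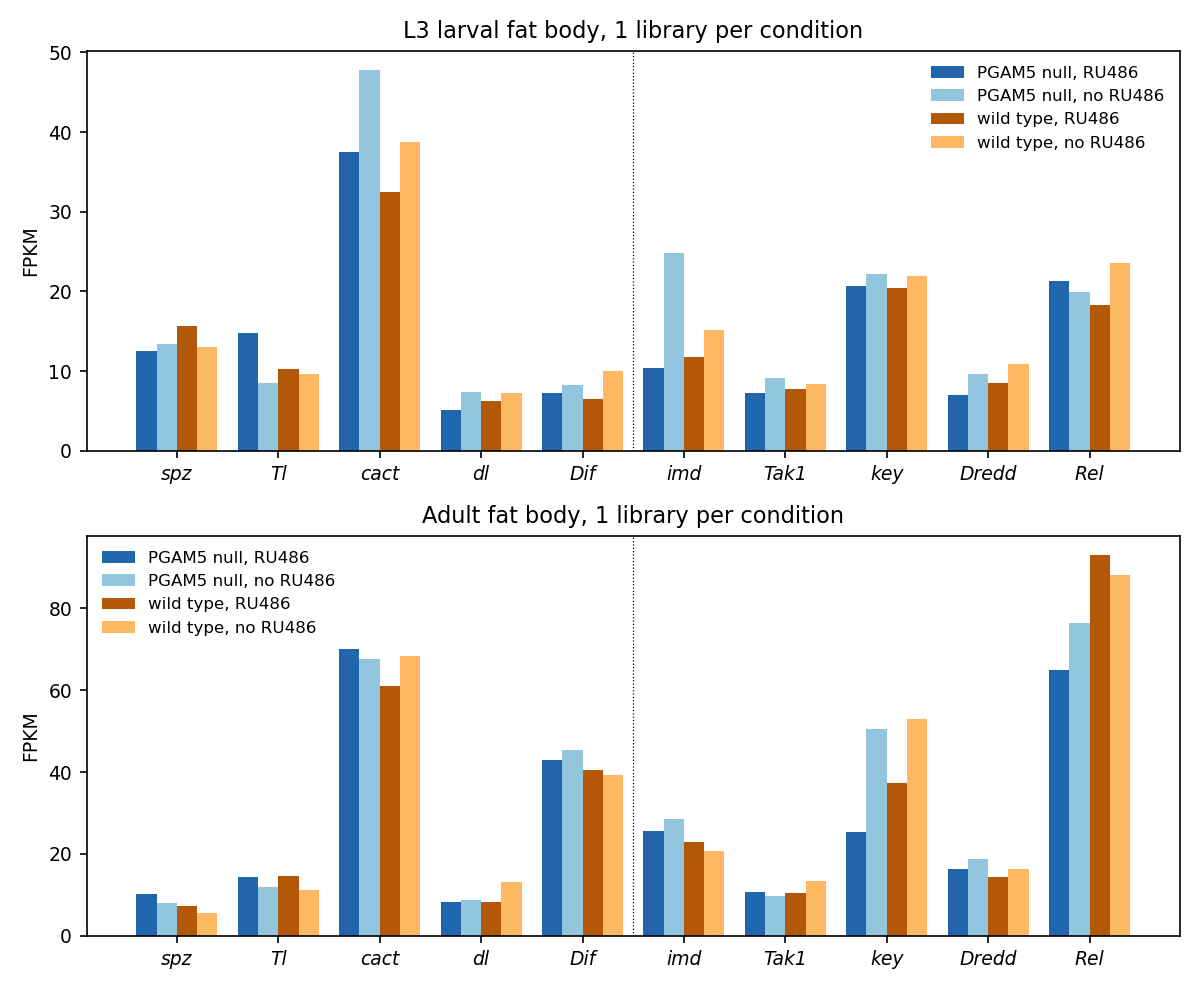
FPKM of the 10 members in larval (upper panel) and adult (lower panel) fat body; within each gene the bars are PGAM5 null with RU486, PGAM5 null without RU486, wild type with RU486 and wild type without RU486, single libraries without error, and the dotted line parts Toll from Imd pathway genes. The tallest larval imd bar is PGAM5 null without RU486, and adult key is lowest in PGAM5 null after RU486.

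In adult fat body Rel was the most abundant member in 3 of the 4 libraries. It had 65.0 FPKM in PGAM5 null after RU486, 76.5 FPKM in PGAM5 null without RU486, 93.1 FPKM in wild type after RU486 and 88.1 FPKM in wild type without RU486. Both PGAM5 null libraries thus lie below both wild-type libraries, with ratios of PGAM5 null to wild type of 0.698 (0.645 to 0.755) after RU486 and 0.869 (0.806 to 0.937) without RU486. Neither reaches the 2-fold line, and the second was 1.01 with scaling to the upper quartile. Marker sums also differed by genotype: muscle markers summed to 1274 and 1428 FPKM in PGAM5 null against 717 and 646 FPKM in wild type, and hemocyte markers to 562 and 505 FPKM in PGAM5 null against 354 and 350 FPKM in wild type, each after RU486 and without it. The hemocyte sums rest largely on Cg25C and vkg. After RU486 these had 263 and 148 FPKM in PGAM5 null and 166 and 86.3 FPKM in wild type. Hml had 11.4 FPKM in PGAM5 null and 6.29 FPKM in wild type. After RU486 the median log2 difference (PGAM5 null less wild type) was 0.80 for muscle and 0.77 for hemocyte markers, beside 0.0089 over all genes. Without RU486 it was 1.07 and 0.35, beside -0.096 over all genes. The part of these markers in the Rel values was not tested. The gene that encloses Rel on the same strand, Nmdmc, had 27.3 and 19.1 FPKM in PGAM5 null and 172 and 178 FPKM in wild type, each with and without RU486, but shares no exon base with Rel in the annotation used. cact was almost even, at 70.0 FPKM in PGAM5 null after RU486, 67.7 FPKM in PGAM5 null without RU486, 61.1 FPKM in wild type after RU486 and 68.3 FPKM in wild type without RU486. Dif, at 39.2 to 45.5 FPKM, was also nearly constant across the 4 libraries.

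The member that varied most in adult fat body was key. It had 25.3 FPKM in PGAM5 null after RU486, 50.6 FPKM in PGAM5 null without RU486, 37.2 FPKM in wild type after RU486 and 52.9 FPKM in wild type without RU486. Both libraries after RU486 lie below both libraries without it. The ratio in PGAM5 null was 0.4996 (0.418 to 0.593), just inside the 2-fold limit, beside 4.77% of genes reduced and 0.399% induced, and the ratio in wild type was 0.704 (0.608 to 0.816), where no member passed and 9.01% of genes were reduced and 0.319% induced. The call in PGAM5 null was lost under some other scalings, where the ratio was at most 0.521. The PGAM5 null library after RU486 is the one with the high ovary sum, and the part of those transcripts was not tested. dl differed in a single library: it had 8.15 FPKM in PGAM5 null after RU486, 8.65 FPKM in PGAM5 null without RU486, 8.14 FPKM in wild type after RU486 and 13.2 FPKM in wild type without RU486. That last library is the one with the high gut sum, and the same library held 35.1 FPKM of pirk, an inhibitor of Imd signalling, against 4.11 to 7.90 FPKM in the other 3. The part of gut transcripts in dl and pirk was not tested.

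The remaining Imd members were close to each other across the adult libraries. imd had 25.5 FPKM in PGAM5 null after RU486, 28.5 FPKM in PGAM5 null without RU486, 22.8 FPKM in wild type after RU486 and 20.7 FPKM in wild type without RU486, with a ratio of PGAM5 null to wild type of 1.12 (0.906 to 1.38) after RU486 and 1.38 (1.12 to 1.71) without it. Dredd spanned 14.3 to 18.8 FPKM and Tak1 9.77 to 13.3 FPKM. In the Toll pathway, spz was the least abundant member in 3 of the 4 libraries and was higher in PGAM5 null in both pairs, at 10.2 FPKM in PGAM5 null after RU486 against 7.13 FPKM in wild type after RU486 (1.43, 1.06 to 1.93), and at 8.09 FPKM in PGAM5 null without RU486 against 5.64 FPKM in wild type without RU486 (1.43, 1.02 to 2.01). Tl had 14.3 FPKM in PGAM5 null after RU486, 11.9 FPKM in PGAM5 null without RU486, 14.5 FPKM in wild type after RU486 and 11.2 FPKM in wild type without RU486. Both libraries after RU486 lie above both without it, with ratios of 1.2 (1.04 to 1.38) in PGAM5 null and 1.29 (1.12 to 1.49) in wild type.

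Comparing PGAM5 null with wild type at the same treatment, no member passed the threshold at either stage. The background shares were 1.78% induced and 9.63% reduced in larvae with RU486, 0.536% and 5.09% in larvae without RU486, 0.282% and 7.74% in adults after RU486, and 0.12% and 14.9% in adults without RU486. Among the other Imd components 2 of 20 tested were reduced in PGAM5 null adults without RU486, beside 14.9% of all genes, pirk at 0.225 and dnr1, a Dredd inhibitor, at 0.395, and none in the other 3 pairs. No other Toll component passed the threshold in these 4 pairs.

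**Figure D5:**
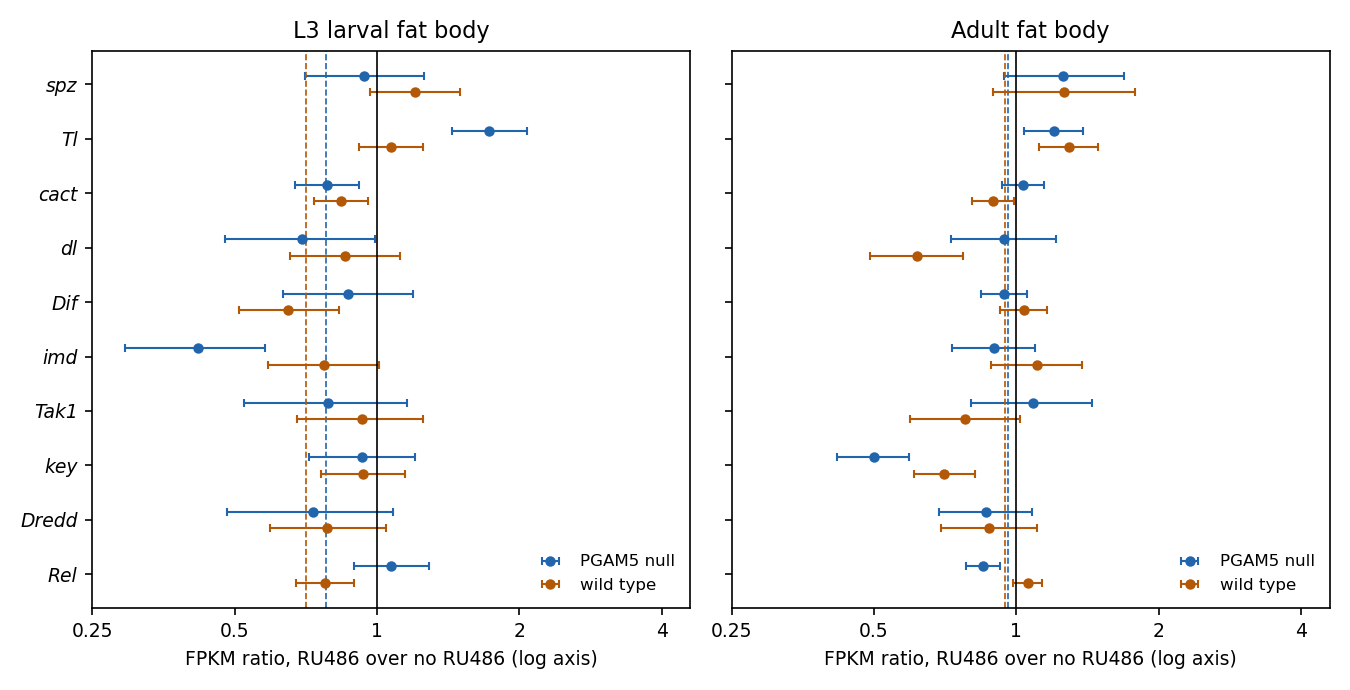
Ratio of FPKM with RU486 to FPKM without it on a log axis, for PGAM5 null (upper point of each pair) and wild type (lower point) in larval (left panel) and adult (right panel) fat body, with 95% intervals for counting error, a solid line at 1 and dashed lines at the median gene. imd in PGAM5 null larvae, at 0.419, and key in PGAM5 null adults, at 0.4996, are the only points at or below 0.5.

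The response to RU486 was then compared between genotypes as a ratio of ratios, PGAM5 null over wild type. Over all genes at 5 FPKM or more in the 4 libraries of a table, the interval of this value left out 1 for 42.1% in larvae and 40.2% in adults, so the members' counts are not above the background. In larvae it left out 1 for 3 of the 10 members: Tl at 1.61 (1.27 to 2.04), Rel at 1.38 (1.10 to 1.73) and imd at 0.542 (0.357 to 0.823). In adults it did so for 4: dl at 1.53 (1.10 to 2.13), cact at 1.16 (1.002 to 1.33), Rel at 0.804 (0.721 to 0.895) and key at 0.710 (0.567 to 0.887). With scaling to the median ratio the intervals of larval Rel and adult cact held 1. The PGAM5 null and wild-type ratios lay on opposite sides of 1 for 2 members in larvae and 5 in adults, beside 23.2% and 53.3% of the same genes. Tl had a ratio above 1 to no RU486 in all 4 pairs of libraries, at 1.73 in PGAM5 null larvae, 1.07 in wild-type larvae, 1.2 in PGAM5 null adults and 1.29 in wild-type adults, and also under each scaling tried. spz was above 1 in all 4 pairs under each of those scalings, but as listed it was at 0.938 in PGAM5 null larvae. A paired exact test over 4 pairs cannot go below p = 0.125 and was not run. Dredd, key and dl were below 1 in all 4 as listed, but all 3 ratios of wild-type larvae were above 1 with scaling to the median ratio. The median gene was itself below 1 in all 4 pairs. It was at 0.782 in PGAM5 null larvae, 0.707 in wild-type larvae, 0.960 in PGAM5 null adults and 0.946 in wild-type adults. The share of all genes on the same side of 1 in all 4 pairs was not counted.

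The make-up of the NF-κB factors also differed between the tissues. Rel took 55.8% to 63.3% of the summed FPKM in larval and 56.0% to 65.7% in adult fat body. dl took 15.3% to 20.9% in larval and 5.74% to 9.40% in adult fat body, against 31.0% to 33.9% in thorax. In adult fat body there were 2.97 to 5.26 Dif transcripts for each dl transcript, in larvae 1.05 to 1.40, and in thorax 0.522 with ΔOTC and 1.02 in the control. The tissues come from separate tables, from larvae and adults and, by the labels, from different drivers. Only such shares within a library were therefore set side by side.

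The genes whose pattern was most like that of Rel were named from Pearson correlations of log2(FPKM + 1), centred within each table, over the 11 libraries and among 3401 genes with at least 10 FPKM in some library of every table. They were TotA, a stress-induced secreted peptide gene (r = 0.977), S2P, a site-2 protease gene (0.975), CG7192 (0.953), CG34423 (0.951) and PRL-1, a phosphatase gene (0.944). Rel itself spanned 3.67-fold in thorax, 1.29-fold in larval and 1.43-fold in adult fat body, so this ranking leans on the ΔOTC thorax library. That all 5 were highest with ΔOTC in thorax follows largely from the selection and is no separate result. TotA had 5074 FPKM with ΔOTC, 270.5 FPKM with ND75 RNAi and 63.7 FPKM in the control. For cact they were CG18858 (0.979), CG31683 (0.973), CR40469 (0.931), MED9 (0.928) and Syx7 (0.926). Of the members that passed the same filter, key was nearest to Rel (r = 0.794) and Dif nearest to cact (0.680). Each of these values rests on 11 points from 3 tissues and is a description only.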

How the data were processed

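TruSeq libraries of thorax and fat body RNA were sequenced, 1 library per condition and 11 in all. The authors mapped reads to Drosophila genome release 5.2 with the Tuxedo tools (Bowtie, TopHat and Cufflinks, with no versions given in the sources used here) and deposited FPKM values. FPKM values were used as deposited, and ratios were taken within a table only. Counts were not used here. Whether counting used strand is not given in the sources used here. No column of the tables was left out (columns not used: 0). The first line of the adult fat body table calls it larval, and the stage was taken from the table's name. The yolk protein and larval serum protein genes are at adult levels in it.

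Libraries were grouped by their labels, and 11 pairs were compared, of which ΔOTC against ND75 RNAi was added later. A gene was tested at a reference of 10 FPKM or more, with ratios of at least 3 counted as induced and of at most 0.5 as reduced, after the study's legends. No condition has a second library and no test was run: an additive fit of stage, genotype and RU486 over the 8 fat body libraries would leave residual degrees of freedom, but would take any difference in the RU486 response between genotypes as error. List medians use log2(FPKM + 1) over genes at 1 FPKM or more in either library. Depth was estimated from the steps that whole fragments leave in low FPKM values: 80.1% to 84.8% of genes below 5.5 fragments fell within 0.1 of a whole fragment. From it came exact conditional binomial intervals at 95% on each ratio, which cover counting error only. Intervals on a ratio of ratios used a normal approximation on the log scale instead. Fragment numbers used the shortest annotated transcript of each gene and are low estimates where longer transcripts were present. Transcript lengths came from an annotation of a later genome release, matched by identifier for 14927 genes and used for lengths and overlaps only. The procedure was tested on simulated data.

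The members and 11 gene lists (140 symbols, all matched) were chosen with earlier results of these data known. Named by rule are the 10 members, up to 6 genes of each list past the threshold or otherwise the 3 with the highest reference FPKM, and the 5 genes most like Rel and cact. Alternatives varied the filter, fold, pseudocount and scaling. Intervals came from scipy 1.17.1, tables from pandas 2.3.3 and numpy 2.4.6, and plots from matplotlib 3.10.9, under Python 3.11.15.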

Additional observations from a re-analysis of the deposited data

Results flagged for a closer look

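The ratio of FPKM with RU486 to FPKM without it lay on opposite sides of 1 in PGAM5 null and in wild type for 2 of 10 members in larvae and 5 of 10 in adults, beside 23.2% and 53.3% of all genes at 5 FPKM or more in the 4 libraries of a table. With 1 library per condition the difference was not tested against replicates. In larvae, Rel was at 1.07 in PGAM5 null and 0.777 in wild type, and spz at 0.938 in PGAM5 null and 1.201 in wild type. In adults, Rel was at 0.850 in PGAM5 null and 1.06 in wild type, and imd at 0.895 in PGAM5 null and 1.10 in wild type. Tak1 was at 1.08 in PGAM5 null adults and 0.780 in wild-type adults, Dif at 0.943 in PGAM5 null and 1.04 in wild type, and cact at 1.03 in PGAM5 null and 0.894 in wild type. Among these 7 pairs, the counting interval of the ratio of ratios excluded 1 for Rel at both stages and for cact in adults, where its lower bound was 1.002. After libraries were scaled to their median gene, Rel in larvae was at 1.37 in PGAM5 null and 1.10 in wild type, no longer on opposite sides of 1.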

How the results depend on the processing

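With single libraries no block over replicates could be fitted, and the 4 RU486 pairs, which differ in stage and genotype, were compared as ratios only. No call of a member changed direction under any alternative, and the ΔOTC ratio of Rel to the control lay between 3.52 and 3.66. At 2-fold 4 members were induced with ΔOTC in place of 1. The single member reduced in PGAM5 null larvae with RU486, imd, gave a count of 0 with scaling to the median ratio or to a common sum, with a common sum taken without marker genes (chosen after seeing the data), or at 3-fold. The single member reduced in PGAM5 null adults, key, gave 0 with the median ratio, the upper quartile, the sum without marker genes or 3-fold. The single member induced in ΔOTC over ND75 RNAi, Rel, gave 0 with the median ratio, the upper quartile or the sum without marker genes. With the median ratio the RU486 ratio of PGAM5 null over wild type left out 1 for 2 members in larvae in place of 3 and for 3 in adults in place of 4 (also added after seeing the data). Of 110 member ratios, those that crossed 1 numbered 18 with the median ratio, 22 with the upper quartile, 19 with a common sum, 10 without marker genes and 0 with other pseudocounts. In wild-type larvae with RU486, scaling to the median moves every log2 ratio by 0.50, in PGAM5 null larvae by 0.36, with ΔOTC over ND75 RNAi by 0.22, with ND75 RNAi over the control by 0.20, and with PGAM5 null over wild type without RU486 by 0.15 in larvae and 0.10 in adults. Over all genes, 44 were induced with ΔOTC over the control (39 to 174 under the alternatives) and 68 over ND75 RNAi (48 to 233), and 843 were reduced in PGAM5 null larvae (456 to 2006) and 215 in PGAM5 null adults (165 to 562). Members resting on few fragments, such as imd and Dredd in thorax, limit what can be seen: the interval of the imd ratio with ΔOTC reaches from 0.622 to 1.42.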
